A study of Homo sapiens with 12 samples.

Results

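Transcripts of 10 transcription factors of the ETS family other than FLI1 were followed after transcription was blocked in Ewing sarcoma cells. The genes were chosen by symbol (ETS1, ETS2, ELF1, ELF2, ELK1, ELK3, ELK4, ERF, ETV6 and GABPA), and all 10 were found among the 26334 gene symbols of the count table. The choice was made with earlier results of these data known, so comparisons of the 10 with all genes are descriptions. A673 is an established Ewing sarcoma line, and the samples carry the name shA673-1c. The cells were grown in high-glucose DMEM with serum, blasticidin and zeocin, and every culture received 5 µM actinomycin D, which blocks RNA synthesis, for 0, 1, 2 or 4 h. Each time point had 3 replicates, labelled as biological, which gave 12 poly(A)-selected libraries of 9147018 to 11194705 counts. The titles and count columns of all 12 samples also carry the mark CTL, which is not spelled out there. The labels name neither an shRNA target nor an inducer. No culture without actinomycin D was followed in parallel, so time in culture and time in the drug cannot be told apart.

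ETS factors share a DNA-binding domain that recognizes a GGAA core, and they differ in partners and in whether they activate or repress. In Ewing sarcoma the driver is usually a fusion of EWSR1 with an ETS gene, most often FLI1, so the endogenous ETS factors share their core site with the oncogene. ETS1 and ETS2 are activators that respond to ERK signalling. ELK1, ELK3 and ELK4 are the ternary complex factors that bind DNA beside SRF. ERF and ETV6 are repressors, ELF1 and ELF2 form a further subfamily, and GABPA binds DNA together with GABP beta subunits. Among the Ewing sarcoma markers, NKX2-2, NR0B1, STEAP1, LIPI, PAX7, PRKCB and CCND1 were measured. Their means ran from 34.2 counts for PAX7 and 43.1 for NKX2-2 to 17760 for CCND1. CD99 was listed at 0 in all 12 libraries, and whether it was absent or not counted was not tested. The 5 endothelial, 4 leukocyte and 4 epithelial markers never exceeded 9 counts for a gene in a library. MYC, JUN and IER2, which are short-lived, fell with slopes of -1.12, -0.89 and -0.84 log2 per hour. Each departed from a straight line (adjusted p = 0.00579, 0.032 and 0.000368, edgeR), so these slopes are averages over an uneven course.

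AU-rich elements and Pumilio sites in the 3′ UTR are sequences that can recruit the RNA decay machinery, and their letters were looked up in the GENCODE version 44 canonical transcripts (GRCh38) on the transcript strand. The submitters' processing notes name hg19, the annotation behind the counts is not given in the sources used here, and the counts may rest on other isoforms. The pentamer ATTTA occurred in the 3′ UTR of all 10 transcripts, and in 75.1% of the 10812 tested genes with such an annotation. The longer AU-rich heptamer TATTTAT, which contains the pentamer, was found in 4 of the 10 (ETS2, ELK1, ELK4 and GABPA), against 37.6% of the tested genes. The Pumilio letters TGTANATA were found in ETS1, ETS2, ELF1 and ELK1, against 31.7%. Among the 6582 tested genes with a 3′ UTR of at least 1000 nt, the shares were 92.1% for ATTTA, 52.2% for TATTTAT and 44.3% for TGTANATA. Of the 10, only ERF had a shorter 3′ UTR. The sites below, with the heptamer in capitals and 8 flanking bases on each side, are shown because they fall both in a transcript that was lost fast (ETS2) and in transcripts that were not (ELK1, ELK4 and GABPA).
ETS2, chr21:38824655-38824677, plus strand: gagggatgTATTTATcacttgga
ELK1, chrX:47636550-47636572, minus strand: gggcggttTATTTATttattttt
GABPA, chr21:25769772-25769794, plus strand: tatcaggtTATTTATatatttgc
GABPA, chr21:25770587-25770609, plus strand: ttctcaaaTATTTATgcaccttc
ELK4, chr1:205613409-205613431, minus strand: ttttttctTATTTATatactgac
ELK4, chr1:205609451-205609473, minus strand: ttgaggccTATTTATttgttttg
The next sites show the Pumilio letters in capitals, in the transcript that was lost fastest (ELF1), in ETS2, in ELK1, which rose under TMM scaling (slope of -0.043 when scaled to GAPDH and ACTB), and in ETS1, which was not called.
ELF1, chr13:40933085-40933108, minus strand: gattctttTGTAAATAcagaactt
ELF1, chr13:40932242-40932265, minus strand: ttttcaacTGTAAATAatgtacat
ETS2, chr21:38823333-38823356, plus strand: agttagttTGTATATAttattata
ELK1, chrX:47635530-47635553, minus strand: attgttccTGTAAATAtatatttt
ETS1, chr11:128459744-128459767, minus strand: tcaagattTGTAGATAgtgtatta
ELK1 held a second heptamer that overlaps the first. A match of letters is a description of the annotated sequence, and binding was not measured.

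The transcripts differed in level before they differed in decay. Levels were compared as CPM (counts scaled to a common library size with TMM factors) divided by transcript length in kilobases, with the caveat that the canonical length may not be that of the isoform expressed. At 0 h ERF was highest at 41.3 ± 2.22 CPM per kb (mean ± SD, n = 3), followed by ELK3 at 37.4 ± 1.14. ELF1 (16.5 ± 0.741), ETS2 (16.2 ± 0.848) and ETS1 (14.5 ± 3.91) came next, and neighbours among these had overlapping libraries, as did ETS1 and ELK1 (12.95 ± 0.350). ELF2 stood at 11.01 ± 0.817, ELK4 at 8.99 ± 0.846, GABPA at 7.05 ± 0.517 and ETV6 lowest at 4.21 ± 0.325, each without overlap with its neighbour in rank. ELF2 (10.18 to 11.82) did overlap with ETS1 (10.48 to 18.29), which is not its neighbour. At 4 h ELK3 was highest at 36.6 ± 1.22 CPM per kb and ERF followed at 25.1 ± 0.884. ELK1 had moved up to 16.9 ± 0.841 and overlapped with ETS1 at 13.6 ± 4.27. ETS2 (4.04 ± 0.699), ELF1 (3.71 ± 0.484) and ELF2 (3.12 ± 0.369) then lay below GABPA and ELK4, with overlap between neighbours of the 3, and ETV6 was still lowest at 1.70 ± 0.146.

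To measure how fast each transcript was lost, edgeR fitted its counts to a straight line over the hours in the drug. The slope is given in log2 units per hour, and -1 divided by a slope below 0 is the half-life. The table has 0 rows for ERCC spike-in RNA, so a slope is relative to the rest of the transcriptome under TMM scaling. A slope above 0 means only a growing share of the remaining RNA. Of the 10 ETS transcripts, 6 fell (ELF1, ETS2, ELF2, ETV6, ERF and ELK4), 1 rose (ELK1) and 3 did not pass the threshold of an adjusted p below 0.05 (ETS1, ELK3 and GABPA). Over all 12032 tested genes, 32.1% fell and 30.7% rose. The ETS transcripts had a median slope of -0.14 log2 per hour, against 0.0093 over all tested genes, and ELF1 and ELK1 marked the ends, at percentiles 3.92 and 77.0 of all tested genes. Together the 10 made up 698.3 ± 25.7 CPM at 0 h and 499 ± 21.6 CPM at 4 h (SD, n = 3). In the comparison of 4 h with 0 h, with time as 4 groups, the same split of 6 lower and 1 higher was found, against 31.6% lower and 28.7% higher over all genes. All 4 h libraries lay below all 0 h libraries for 6 ETS transcripts (32.9% of all genes) and above them for 1 (30.4%).

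**Figure D1:**
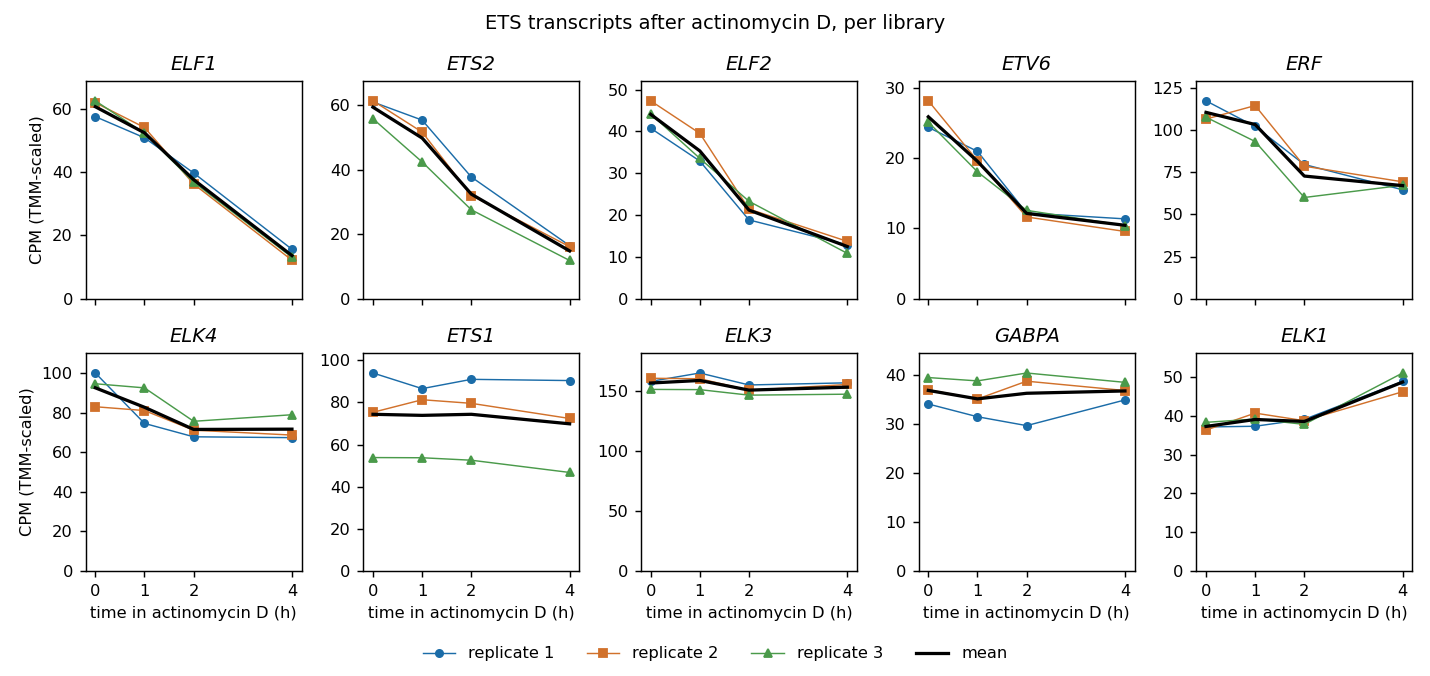
Level of each ETS transcript in CPM after TMM scaling (vertical axis, from 0) against hours in actinomycin D, with 1 symbol per library, thin lines joining libraries of the same replicate number and a thick line for the mean of 3. ELF1, ETS2 and ELF2 fall through 4 h, ETV6, ERF and ELK4 fall over the 4 h and did not pass the threshold from 2 to 4 h, ETS1, ELK3 and GABPA did not pass the threshold, and ELK1 is highest at 4 h.

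ELF1, an ETS activator known from lymphoid and other cells, had the steepest slope. Its level was 57.5, 61.9 and 62.5 CPM in replicates 1, 2 and 3 at 0 h and 50.8, 54.0 and 52.2 CPM at 1 h. It then stood at 39.7, 36.2 and 36.8 CPM at 2 h and at 15.6, 12.2 and 13.1 CPM at 4 h. No library of a later time overlapped with one of an earlier time, and 22.4% of the 0 h level was left at 4 h. The slope was -0.54 log2 per hour (standard error 0.039, adjusted p = 1.21e-08), a half-life of 1.86 h with a 95% confidence interval of 1.61 to 2.21 h. Its paralog ELF2 fell from 40.8, 47.3 and 44.2 CPM at 0 h to 32.9, 39.5 and 33.6 CPM at 1 h, 18.9, 21.4 and 23.3 CPM at 2 h, and 12.9, 13.7 and 10.9 CPM at 4 h. The half-life of ELF2 was 2.12 h (1.85 to 2.48 h, adjusted p = 6.25e-09), and 28.4% was left at 4 h.

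ETS2, the growth factor-responsive partner of ETS1 in its subfamily, was the other transcript with a half-life below 2 h. Its level was 60.9, 61.3 and 55.7 CPM at 0 h, 55.3, 51.6 and 42.3 CPM at 1 h, 37.7, 32.0 and 27.6 CPM at 2 h, and 16.5, 16.1 and 11.9 CPM at 4 h. Every 4 h library was below every earlier one, with 25.0% left, and the half-life was 1.96 h (1.70 to 2.32 h, adjusted p = 1.24e-08). ETS1 behaved otherwise. It stood at 94.0, 75.3 and 53.9 CPM at 0 h, at 86.6, 81.3 and 53.8 CPM at 1 h, at 91.0, 79.6 and 52.6 CPM at 2 h, and at 90.4, 72.4 and 46.8 CPM at 4 h. The replicates kept their order at every time, with replicate 3 lowest, and the spread between replicates was larger than any change with time. The slope of ETS1 was -0.022 log2 per hour with a 95% confidence interval of -0.14 to 0.10 (adjusted p = 0.758). A fit that blocked on the replicate number narrowed the interval to between -0.055 and 0.0052, and the slope still did not pass the threshold (adjusted p = 0.127).

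The repressor ETV6, itself a frequent partner in leukaemia fusions, was the least abundant transcript. Its level was 24.4, 28.1 and 25.1 CPM at 0 h, 21.0, 19.6 and 18.0 CPM at 1 h, 12.2, 11.6 and 12.6 CPM at 2 h, and 11.4, 9.57 and 10.4 CPM at 4 h. Most of the loss had occurred by 2 h, and 40.3% was left at 4 h. The half-life was 2.92 h (2.35 to 3.84 h, adjusted p = 1.09e-06). ERF, a repressor that ERK phosphorylation excludes from the nucleus, stood at 117, 106.5 and 108 CPM at 0 h, 102, 114.5 and 93.2 CPM at 1 h, 79.6, 78.6 and 60.0 CPM at 2 h, and 64.6, 69.3 and 67.3 CPM at 4 h. The 0 h and 1 h libraries overlapped, as did those of 2 h and 4 h, and 60.8% was left at 4 h. The half-life from the straight line was 5.14 h (3.86 to 7.67 h, adjusted p = 3.42e-05).

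The ternary complex factors had slopes of both signs. ELK4 was at 99.99, 83.0 and 94.6 CPM at 0 h, 74.5, 81.0 and 92.5 CPM at 1 h, 67.8, 71.1 and 75.6 CPM at 2 h, and 67.3, 68.6 and 78.9 CPM at 4 h. Its libraries overlapped between neighbouring times, 77.4% was left at 4 h, and the half-life of 10.8 h had a wide interval (6.91 to 24.9 h, adjusted p = 0.00372) and was 4.37 h when scaled to GAPDH and ACTB. Without 0 h the slope of ELK4 did not pass the threshold (-0.064, adjusted p = 0.104), nor did its change from 0 to 4 h without replicate 1 (-0.27, adjusted p = 0.0622). ELK3, the most abundant of the 10 in CPM, ranged from 147 to 165 CPM over all 12 libraries, with a slope of -0.012 (95% confidence interval -0.040 to 0.017, adjusted p = 0.466). ELK1 was at 37.1, 36.3 and 38.3 CPM at 0 h, 37.3, 40.7 and 39.2 CPM at 1 h, 39.1, 38.7 and 37.8 CPM at 2 h, and 48.9, 46.2 and 51.0 CPM at 4 h. Only the 4 h libraries stood apart, all above every earlier library, and ELK1 rose by 0.095 log2 per hour (standard error 0.019, adjusted p = 0.000304). Without the 4 h libraries its slope was 0.035 (adjusted p = 0.50).

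GABPA, the DNA-binding subunit of GABP, ranged from 29.7 to 40.4 CPM over the 12 libraries, and the lowest and the highest value were both taken at 2 h. Its slope was 0.0039 log2 per hour (95% confidence interval -0.052 to 0.060, adjusted p = 0.906), and -0.035 with library totals. The slopes of single replicates, fitted together with 1 slope each, gave a mean of -0.51 ± 0.043 for ETS2, -0.53 ± 0.064 for ELF1, -0.47 ± 0.032 for ELF2 and -0.35 ± 0.054 for ETV6 (SD, n = 3). ERF gave -0.20 ± 0.022, ELK4 -0.093 ± 0.033 and ELK1 0.095 ± 0.015. These 7 slopes had the same sign in 3 of 3 replicates, but so did those of ETS1 and ELK3, which were not called. Only GABPA had slopes of both signs. The replicates are the libraries of the main fit, so this is no separate test. The share over all genes was not computed.

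Every slope depends on the scaling of the libraries, because GAPDH and ACTB rose by 0.15 and 0.12 log2 per hour relative to TMM scaling. When each library was scaled to its GAPDH and ACTB counts instead, the median slope of all genes moved from 0.0093 to -0.13, 64.2% of all genes fell and 0.931% rose. Under that scaling 9 of the 10 ETS transcripts fell and 0 rose. ETS1 (-0.16, adjusted p = 0.00579), ELK3 (-0.15, adjusted p = 2.25e-07) and GABPA (-0.13, adjusted p = 0.00332) were then past the threshold, and ELK1 had a slope of -0.043 (adjusted p = 0.138). The direction of ELK1 held for TMM scaling, library totals and DESeq2 size factors but not for this scaling, while the slopes of ETS2, ELF1, ELF2, ETV6, ERF and ELK4 were below 0 and past the threshold under all 4. Their half-lives were shorter when scaled to GAPDH and ACTB, with 4.37 h for ELK4 (95% confidence interval 3.37 to 6.197 h), 3.02 h for ERF (2.54 to 3.72 h), 2.09 h for ETV6, 1.64 h for ELF2, 1.54 h for ETS2 and 1.47 h for ELF1. Each of these values lay below the 95% confidence interval of the same transcript under TMM scaling. With library totals ELK3 fell as well (-0.051, adjusted p = 0.00239).

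**Figure D2:**
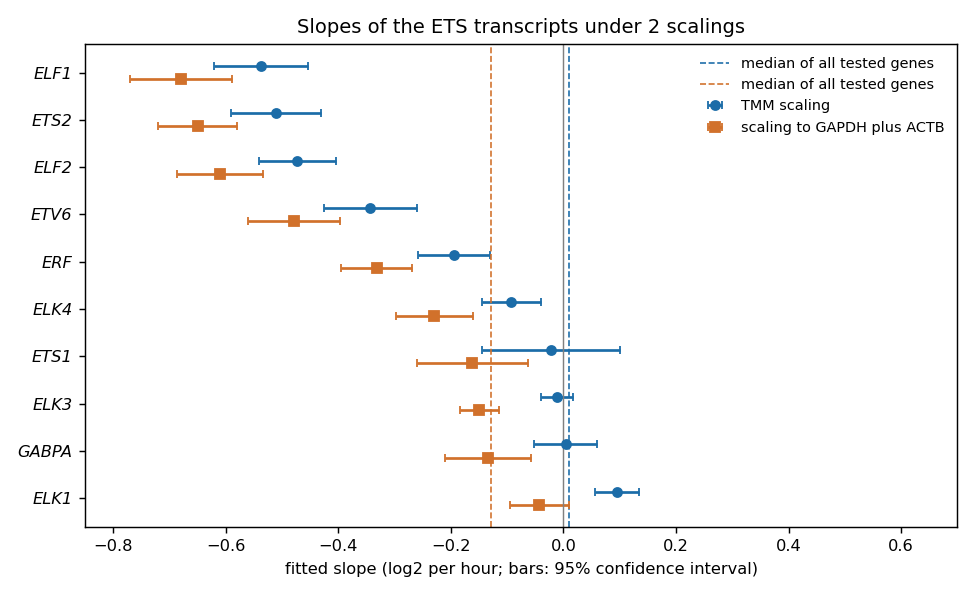
Fitted slope of each ETS transcript in log2 per hour (horizontal axis) with its 95% confidence interval, under TMM scaling (circles) and under scaling to GAPDH plus ACTB (squares), with dashed lines at the median slope of all tested genes under each. ELF1, ETS2, ELF2, ETV6, ERF and ELK4 lie below 0 under both, and ELK1 moves from 0.095 to -0.043.

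The change in each interval is given next, with the last interval longer (2 h) than the others (1 h each), so that sizes are not comparable across them. From 0 to 1 h, 1 ETS transcript was lower (2.24% of all genes), and 0 were higher (0.349%). This was ETV6, by -0.41 log2 (standard error 0.098, adjusted p = 0.0435, edgeR). This call was lost whichever replicate number was left out. Libraries of the same replicate number deviated together, and a fit with that number as a block called 4 lower (10.5% of all genes), adding ETS2 (-0.26), ELF1 (-0.21) and ELF2 (-0.32). From 1 to 2 h, 5 were lower (12.5% of all genes) and 0 higher (3.76%): the log2 changes were -0.74 for ELF2, -0.69 for ETV6, -0.62 for ETS2, -0.51 for ERF and -0.48 for ELF1. Without replicate 2 the count was 2, with ETS2, ELF1 and ERF no longer past the threshold. The block added ELK4 (-0.21, adjusted p = 0.00709). From 2 to 4 h, 3 were lower (18.3% of all genes), and these were ELF1 (-1.47), ETS2 (-1.13) and ELF2 (-0.76). ELK1 was higher by 0.34 (12% of all genes were higher), but by 0.035 when scaled to GAPDH and ACTB (adjusted p = 0.817). ETV6 and ERF changed by -0.22 and -0.12 in this interval and did not pass the threshold (adjusted p = 0.163 and 0.432). Under scaling to GAPDH and ACTB, however, both were lower from 2 to 4 h (-0.53 and -0.41, adjusted p = 0.00296 and 0.00472), and 6 ETS transcripts were lower against 40.4% of all genes.

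**Figure D3:**
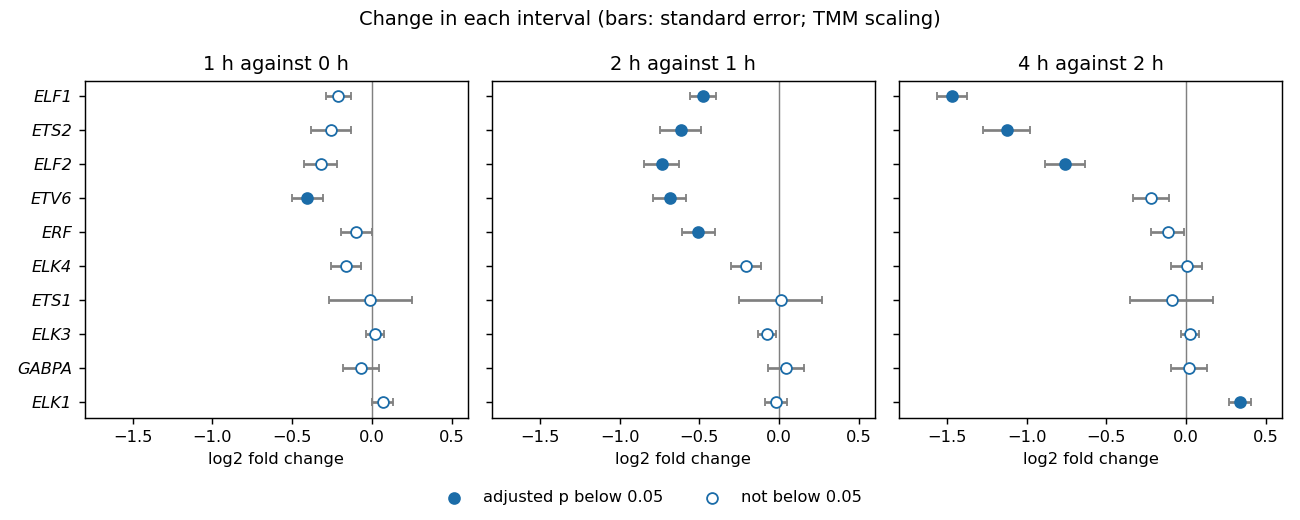
Log2 fold change of each ETS transcript from 0 to 1 h, 1 to 2 h and 2 to 4 h under TMM scaling (horizontal axes, bars for the standard error), with filled circles for an adjusted p below 0.05, and the last interval lasts 2 h and the others 1 h. ELF1, ETS2 and ELF2 are below 0 and filled from 1 to 2 h and from 2 to 4 h, ETV6 from 0 to 1 h and from 1 to 2 h, ERF from 1 to 2 h, and ELK1 is above 0 and filled from 2 to 4 h.

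A half-life from a straight line describes a transcript only where loss is even in time. A joint test of departure from the line called 1 of the 10, ELF1 (adjusted p = 0.0126, edgeR), against 2.70% of all genes. The loss of ELF1 steepened, with 86.4% of the level left after the first hour, 71.8% of that after the second and 36.1% of that after the following 2 h. ETV6, which did not pass the threshold (adjusted p = 0.0551), had 75.5%, 62.2% and 85.8% left after the same intervals. The call for ELF1 was lost whichever replicate number was left out, and it held when any single library was left out. Without replicates 1, 2 and 3, the number of all genes that departed also went from 325 to 12, 0 and 175. In the fit blocked on replicate number, 5 of the 10 departed (ELF1, ERF, ETV6, ETS2 and ELK4), against 17.2% of all genes. ELF2 was next (adjusted p = 0.0509).

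Paralogs within a subfamily were compared by the log2 ratio of their counts in each library, which does not depend on the scaling. There were 5 such pairs, each tested by an exact permutation of the times over the 12 libraries (369600 arrangements, two-sided), with p-values adjusted over the 5. The ETS1/ETS2 ratio was 1.54, 1.23 and 0.967 in replicates 1, 2 and 3 at 0 h and 5.48, 4.47 and 3.93 at 4 h, so the groups did not overlap. It rose by 0.49 log2 per hour (95% confidence interval 0.39 to 0.60, exact permutation adjusted p = 4.06e-05), and the 3 replicates gave 0.49, 0.48 and 0.51. ELF1 and ELF2 were not told apart by a straight line, with a slope of the ratio of -0.085 (95% confidence interval -0.21 to 0.040, exact permutation p = 0.164). The ratio in single libraries is given as a description, and its departure from a line was not tested. It was 1.41, 1.31 and 1.41 at 0 h and 1.54, 1.37 and 1.56 at 1 h, with overlap between these times. It then stood at 2.10, 1.69 and 1.58 at 2 h and at 1.21, 0.888 and 1.20 at 4 h. All 2 h libraries lay above and all 4 h libraries below those of 0 h.

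Each ratio among the ternary complex factors rose. These ratios are not separate results, because ELK1/ELK4 is the product of ELK1/ELK3 and ELK3/ELK4. The ELK1/ELK4 ratio rose from 0.372 to 0.438 at 0 h to 0.647 to 0.726 at 4 h (range over 3 libraries), a slope of 0.19 log2 per hour (95% confidence interval 0.14 to 0.23, exact permutation adjusted p = 4.06e-05). The ELK1/ELK3 ratio rose by 0.11 (0.066 to 0.15, exact permutation adjusted p = 0.000532). ELK3/ELK4 rose by 0.080 (0.0060 to 0.15, exact permutation adjusted p = 0.0490), and this difference was not past the threshold without replicate 1, without replicate 2 or without 0 h. With times permuted only within replicate numbers, the exact permutation adjusted p was 0.0116 for ELK3/ELK4, 0.000181 for ETS1/ETS2 and 0.179 for ELF1/ELF2.

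**Figure D4:**
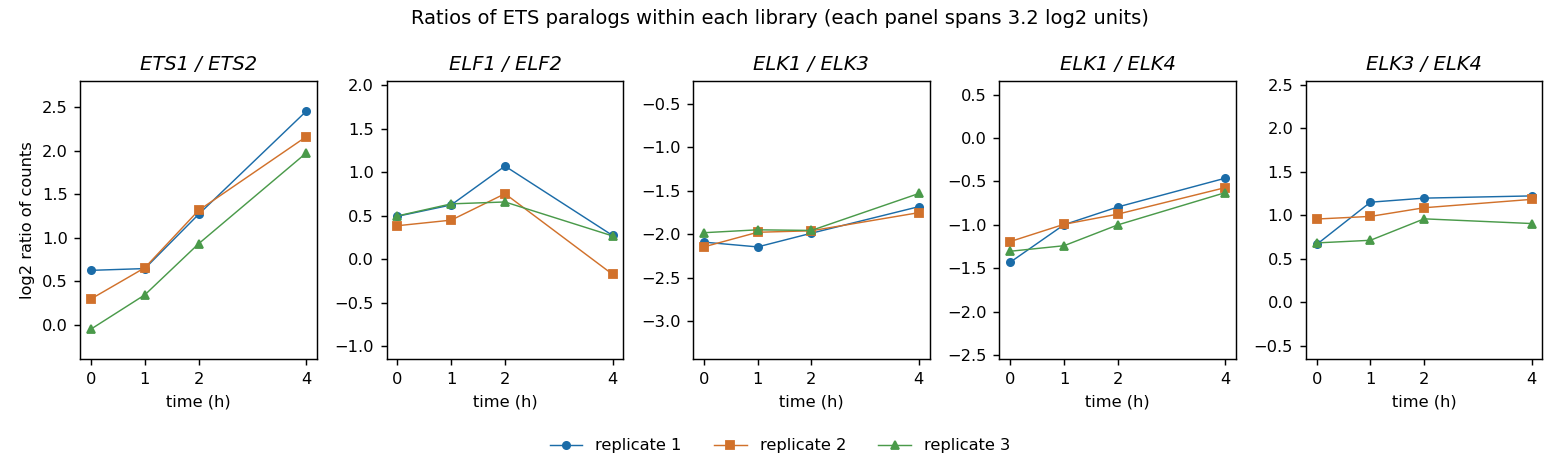
Log2 ratio of the counts of 2 ETS paralogs in each library (vertical axis, the same span in every panel) against hours in actinomycin D, with lines joining libraries of the same replicate number. ETS1/ETS2 rises from between -0.049 and 0.63 at 0 h to between 1.97 and 2.45 at 4 h, ELF1/ELF2 is highest at 2 h and lowest at 4 h, and the ELK ratios rise by 0.080 to 0.19 per hour.

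The AU-rich letters shown at the outset occurred in fast and in slow transcripts. ELF1, ELF2, ETV6 and ERF fell and held no heptamer in the 3′ UTR, ETS2 and ELK4 fell and held 1 and 2, and ELK1 and GABPA held 2 each and had slopes of 0.095 and 0.0039 under TMM scaling (-0.043 and -0.13 when scaled to GAPDH and ACTB). ATTTA density was 3.33 copies per kb of 3′ UTR in ELF1 and 3.39 in ETS2, and also 3.41 in GABPA and 3.78 in ELK3, while ETV6 and ERF had 1.15 and 1.12. Across the 10 transcripts Spearman's rho between slope and ATTTA density was 0.079, and between slope and 3′ UTR length 0.13. These are descriptions over 10 genes measured in the same 12 libraries. The 3′ UTRs were longer than usual, with a median of 2355 nt against 1417 nt over the tested genes, and ran from 896 nt in ERF to 8603 nt in ELK4. Transcripts that share a chromosome also differed: ETS2 (38805183 to 38824955) and GABPA (25734570 to 25772460) both lie on chromosome 21 of GRCh38, and ETV6 (11649674 to 11895377) and ELK3 (96194375 to 96269824) on chromosome 12.

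**Figure D5:**
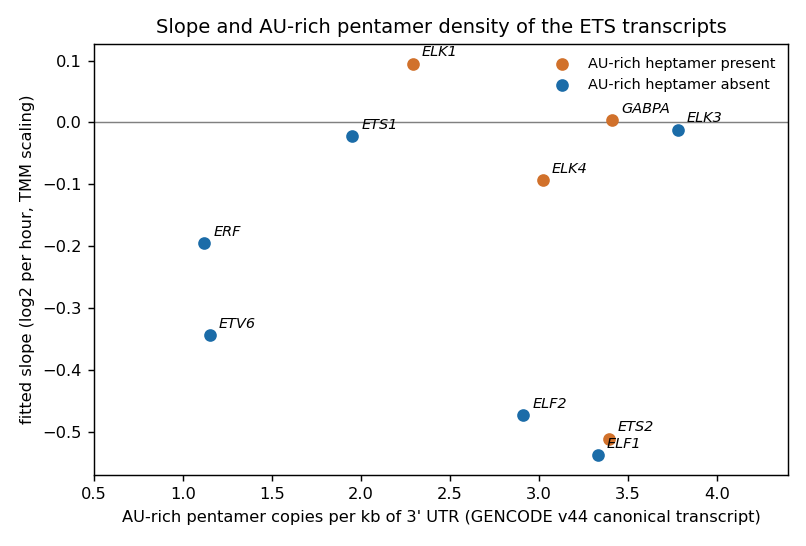
Fitted slope of each ETS transcript in log2 per hour under TMM scaling (vertical axis) against copies of the AU-rich pentamer per kb of annotated 3′ UTR (horizontal axis), with color for the presence of the AU-rich heptamer. Transcripts with more than 3 copies per kb include both the fastest (ELF1, ETS2) and the most level (ELK3, GABPA).

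For the rest of the family, 18 further ETS genes were listed and 6 were tested, since 12 had a mean below 10 counts (no more than 19 counts in a library, and 0 in all libraries for 3). Of the 6, 4 fell (32.1% of all genes) and 1 rose (30.7%), with a median slope of -0.18 log2 per hour. FLI1, whose reads in such cells can come from the fusion as well as from the normal gene, fell with a half-life of 2.00 h (adjusted p = 2.47e-08), and ETV3, a repressor related to ERF, with 2.11 h (adjusted p = 6.87e-07). ELF4 and ETV5 fell with half-lives of 4.70 and 7.13 h, and ETV1 had a slope of -0.013 (adjusted p = 0.492). Scaled to GAPDH and ACTB, the half-lives were 1.56 h for FLI1, 1.64 h for ETV3, 2.86 h for ELF4 and 3.59 h for ETV5. ETV1 also fell under that scaling (-0.15, adjusted p = 3.85e-05). ETV4 rose by 0.12 (adjusted p = 0.00439), but did not pass the threshold with library totals, with GAPDH and ACTB scaling, without 0 h or without replicate 1.

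Genes for partners of ETS factors were also mixed, with 8 of 15 lower (32.1% of all genes) and 4 higher (30.7%) by slope and a median of -0.077 log2 per hour. The coactivator genes CREBBP and EP300 fell with half-lives of 2.12 and 2.42 h, and the corepressor scaffold SIN3A with 1.66 h (adjusted p at most 1.36e-07). SIN3A and MKL2 departed from a straight line (adjusted p = 0.0376 and 0.0467), so their half-lives are averages over an uneven course. MKL1 and MKL2, cofactors of SRF, fell with half-lives of 2.11 and 2.55 h. SRF itself had a slope of -0.077 (adjusted p = 0.0666), which passed the threshold in the fit blocked on replicate number (-0.078, adjusted p = 0.00116). GABPB1, a beta subunit that pairs with GABPA, fell with a half-life of 4.57 h (adjusted p = 8.64e-07), against a slope of 0.0039 for GABPA; the difference was not tested. RUNX1 and NCOR1 also fell. MAPK3, which encodes the kinase ERK1, rose by 0.19 log2 per hour, and HDAC3, a histone deacetylase gene, by 0.13. Under scaling to GAPDH and ACTB, 0 of the partner genes rose. The half-lives given here were then shorter, with 2.79 h for GABPB1, and SRF fell (-0.22, adjusted p = 1.15e-06).

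The genes whose time course was most like that of the extremes were found by the distance between mean log2 changes at the 4 time points, over all tested genes. Among the genes nearest to ELF1 were MFSD5 and CDC42EP4, at distances of 0.090 and 0.096 log2 units. ETS2 was closest to EIF2AK3, ERRFI1 and OSER1 (0.051, 0.068 and 0.072), and ELK1 to COX16, NICN1 and FAM101B (0.023, 0.028 and 0.043). Genes are compared here within the same libraries, and the distances are descriptions without a test.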

How the data were processed

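The 10 members and the lists beside them were chosen with earlier results of these data known. The authors deposited raw counts, whole numbers for each gene symbol and library. Per the labels, libraries were made with a stranded poly(A) kit, and the submitters' processing notes name FastQC, STAR and hg19 without versions; the counting tool, its annotation and its use of strand are not given in the sources used here. The paper describes Salmon on an Ensembl transcriptome for such libraries in general. Antisense neighbours (such as MFSD4A at ELK4 and ATP5PF at GABPA) and pseudogenes (of ETS2, ELF2, ELK1 and GABPA) in GENCODE version 44 could share reads. At ERF, exons of an unnamed protein-coding gene on the same strand overlap and could also share reads.

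Genes averaging 10 counts or more over the libraries were kept, and counts were fitted with edgeR 4.0.16 (R 4.3.3, limma 3.58.1) by glmQLFit and glmQLFTest with TMM factors (0.924 to 1.05), with Benjamini-Hochberg adjustment over all 12032 tested genes and a threshold of 0.05. Standard errors came from the F statistic. Adjusted p-values without another name are from this fit. Ratios used a pseudocount of 0.5 in Python 3.11.15 with numpy 2.4.6. Alternatives, including DESeq2 1.42.0, are in the closing section. Scripts were tested on simulated data.

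The named genes were the ETS genes and partners, GAPDH, ACTB, MYC, JUN, IER2 and the 3 nearest genes of the 2 lowest and the highest slope; a few of these are not reported here. Within time points, all 12 pairs of replicates had a chi-square per degree of freedom above 1 (3.20 to 8.65), so none was taken for a repeated library. Replicate numbers come from the labels, and the deviations of same-numbered libraries correlated at 0.285 to 0.596 in 18 pairs. The main fits and ratio tests did not use this pairing, and results with a replicate block are given as alternatives. P-values measure the spread between these cultures of 1 line. Counts below the filter limit only the genes named as not tested, and intervals cover this spread under the stated scaling.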

Additional observations from a re-analysis of the deposited data

How the results depend on the processing

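The slopes of ETS2, ELF1, ELF2, ERF and ETV6 kept their direction and stayed past the threshold in all 24 alternatives (ELF1 -0.68 to -0.33, ETS2 -0.65 to -0.42, ETV6 -0.53 to -0.29). Scaled to GAPDH plus ACTB, 0 ETS members, 0 other ETS genes and 0 partner genes rose by slope or from 0 to 4 h (all genes 7729 lower and 112 higher by slope, 7612 and 111 from 0 to 4 h). ELK1 then had a slope of -0.04291 and a change of -0.1621 from 0 to 4 h, and GABPA a slope of -0.1339; the half-lives of ELK4 and ERF were 4.37 and 3.02 h. From 0 to 1 h ELK1 and ELK3 stood at -0.04785 and -0.09739, and from 1 to 2 h ETS1 and GABPA at -0.1181 and -0.08122. From 2 to 4 h, 6 members were lower and 0 higher, with ELK3, ELK4 and GABPA at -0.2808, -0.2994 and -0.288. With library totals, 0 other ETS genes and 2 partner genes rose by slope, 2 partner genes from 0 to 4 h, and 2 members departed from a line (all genes higher, 2244 by slope and 2121 from 0 to 4 h). GABPA then had a slope of -0.03503, ETS1 and GABPA -0.0488 and -0.01394 from 1 to 2 h, and ELK3, ELK4 and GABPA -0.06151, -0.08106 and -0.06562 from 2 to 4 h. With a mean of at least 100 counts, 2 members departed and GABPA had a slope of -0.00259. With no filter, 2 other ETS genes rose. Without 4 h, 0 members and 2 partner genes rose, ETS1 and GABPA had slopes of 0.01089 and -0.0008128, and 2215 and 1447 of all genes were lower and higher. Without 0 h, 0 other ETS genes rose and the ELK3/ELK4 slope was 0.0455. With the replicate block, 5 members (2073 of all genes) departed and 4 were lower at 1 h, ELK4 was added from 1 to 2 h and SRF by slope, and no other call of a member changed.

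Leaving out replicates gave 0 to 1 other ETS gene that rose, 0 to 1 member (0 to 266 of all genes) that departed, 0 to 0 members lower at 1 h and 2 to 5 from 1 to 2 h. ETS1 ranged from -0.07212 to 0.03156 by slope and from -0.3122 to 0.1298 from 0 to 4 h, and GABPA from -0.005278 to 0.01286 and from -0.05774 to 0.03778. By step, ETS1 ranged from -0.07379 to 0.06429 and ELK3 from -0.002651 to 0.03724 at 1 h. From 1 to 2 h ETS1 ranged from -0.03048 to 0.03341, ELK1 from -0.06143 to 0.007573 and GABPA from -0.004351 to 0.09797. From 2 to 4 h ELK4 ranged from -0.0489 to 0.02883 and GABPA from -0.07259 to 0.06673. The ELK3/ELK4 slope ranged from 0.06095 to 0.08987. The cause of these changes was not tested. At this depth 12 other ETS genes fell below the filter, and low expression and limited depth cannot be told apart for them.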
